A study of Mus musculus with 12 samples.

Results

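The genes described here are 10 transcripts that astrocytes raise when they become reactive: Gfap, Vim, Serpina3n, Osmr, Cd44, S1pr3, Steap4, Timp1, Cp and Hspb1. They were taken by name, and all 10 of 10 were found among the 24318 genes of the deposited gene table. RNA was sequenced after rRNA depletion from hippocampus of 7-month-old mice, with 3 wild-type (WT) and 3 5xFAD libraries under the title prefix CG. The 5xFAD strain carries human genes with familial Alzheimer's disease mutations under Thy1 regulatory sequence, so the transgenes are driven in neurons and not in astrocytes. Strain background, the sex of the mice and whether each library came from 1 animal are not stated in the labels, so the p-values reflect only how far these libraries spread, which may be technical. The values are FPKM, fragment counts divided by transcript length and by library size, which allows levels to be compared between genes.

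Astrocytes answer injury, infection and amyloid deposits with a change of state called reactive gliosis. They thicken their cytoskeleton with the intermediate filament proteins GFAP and vimentin, they secrete acute-phase proteins and protease inhibitors, and they put receptors for cytokines, hyaluronan and lipids on their surface. The response is classically driven by cytokines that signal through gp130 and the transcription factor STAT3. In mouse models of amyloid deposition, reactive astrocytes gather around plaques together with activated microglia.

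The tissue and one label were checked first. All 14 astrocyte identity genes were present in every library, the lowest value being 11.96 FPKM, and the hippocampal markers Prox1 and Wfs1 were at 20.4 FPKM or more and 31.5 FPKM or more. Thy1 was at 296, 308 and 340 FPKM in WT, at 1136 and 1172 FPKM for the first 2 libraries of the 5xFAD label, with 305 FPKM for the library labelled 5xFAD replicate 3. That library goes against its label, so each result is given with it (6 libraries) and without it (5 libraries). Xist was at 0.246 FPKM in WT replicate 1 and 0.136 FPKM in 5xFAD replicate 1, against 99.9 to 112 FPKM in the other 4 libraries, which sets replicate 1 of each genotype apart as male. Relative depth, read from the lowest FPKM values, ran from 0.793 to 1.15 times that of WT replicate 1, and the depth in reads is unknown. The table of 7025 back-splice junctions from the AT libraries named a member as host for 0 junctions.

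Without the library labelled 5xFAD replicate 3, 4 of the 10 genes rose: Gfap about 5 times on the FPKM scale (ratio of means 4.98), Osmr 3.56 times, Serpina3n 2.71 times and Vim 2.68 times. These are the cytoskeletal pair, a secreted inhibitor and a cytokine receptor. Cd44, S1pr3, Timp1, Cp and Hspb1 did not pass, and Steap4 was too low to be tested. With all 6 libraries, 0 of 9 tested members passed limma (moderated linear models on log2(FPKM + 1), Benjamini-Hochberg adjusted p under 0.05), against a background of 0.0069% of 14500 genes. At an unadjusted p under 0.05 the 6-library fit counted 4 members, Gfap, Vim, Cd44 and S1pr3, against 2.92% of all genes. Serpina3n and Osmr were not among them (limma unadjusted p = 0.0706 and 0.0752). In the 5 libraries 4 of 9 tested members were called, all higher in 5xFAD, where 1.2% of 14527 genes were called and 1.18% were called higher. Because the RNA came from whole tissue, more astrocytes and more RNA per astrocyte cannot be told apart.

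**Figure D1:**
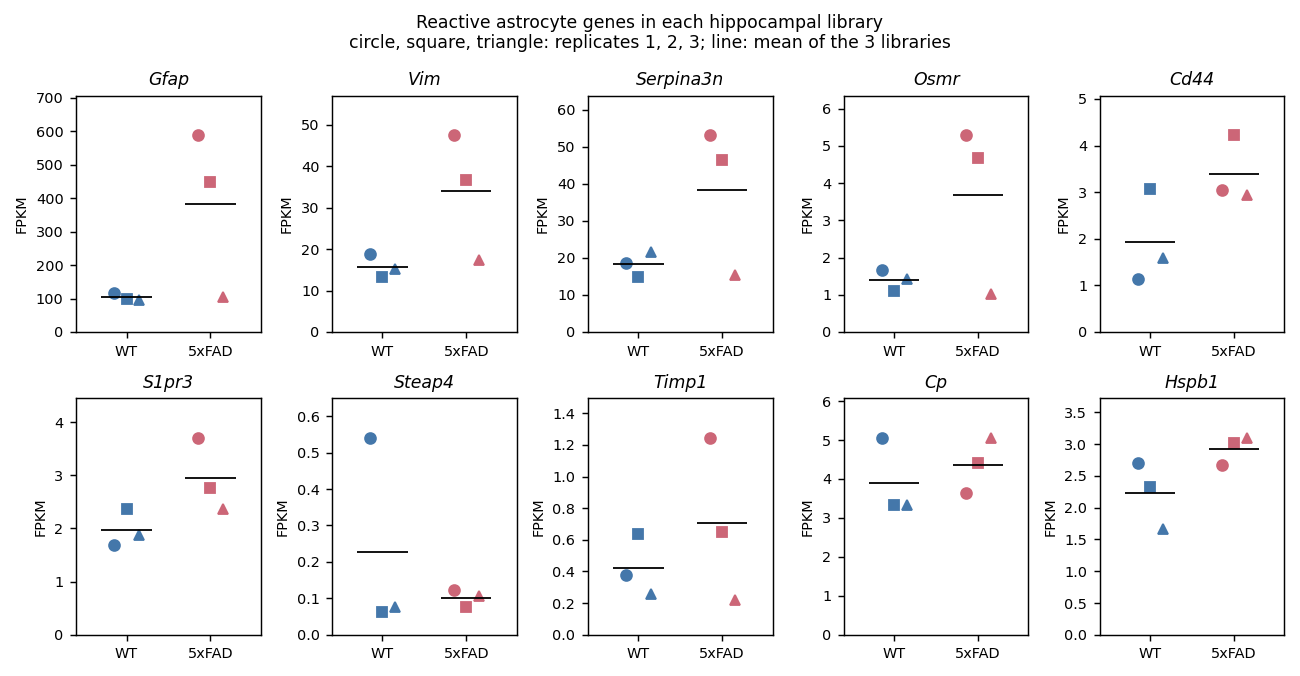
FPKM of each of the 10 genes (vertical axis, linear, from 0) in the WT (blue) and labelled 5xFAD (red) libraries, 1 point per library, with circles, squares and triangles for replicates 1, 2 and 3 and a line at the mean of 3. For Gfap, Vim, Serpina3n and Osmr the circle and the square of 5xFAD lie above every WT point, while the triangle, the library labelled 5xFAD replicate 3, lies near or within the WT points.

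The promoter sequences of the 4 genes that rose are shown because these genes moved together, and they let a reader compare their proximal upstream DNA. All 10 genes matched the RefSeq promoter table (build GRCm38.p6), Cp with 2 start sites, and the 250 bases upstream of each start were read 5′ to 3′ along the gene. Capitals mark matches to the TATA motif TATAAA and the GC box GGGCGG, the latter in either strand. Both strands were also searched for the STAT motif TTCNNNGAA, the AP-1 motif TGANTCA and the heat shock motif GAANNTTC, each of which reads the same on both strands, and TATAAA on the gene's strand.
Gfap, chr11:102897201-102897450, minus strand: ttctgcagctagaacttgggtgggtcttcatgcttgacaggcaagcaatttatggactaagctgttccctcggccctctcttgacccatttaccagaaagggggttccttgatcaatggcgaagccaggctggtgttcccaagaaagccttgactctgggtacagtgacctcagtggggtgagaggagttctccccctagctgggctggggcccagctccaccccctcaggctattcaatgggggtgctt
Vim, chr2:13574061-13574310, plus strand: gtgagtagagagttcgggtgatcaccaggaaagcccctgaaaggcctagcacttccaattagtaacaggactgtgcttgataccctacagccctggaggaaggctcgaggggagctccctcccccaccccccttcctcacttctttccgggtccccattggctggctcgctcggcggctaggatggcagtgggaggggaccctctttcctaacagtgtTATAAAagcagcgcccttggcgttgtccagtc
Serpina3n, chr12:104406458-104406707, plus strand: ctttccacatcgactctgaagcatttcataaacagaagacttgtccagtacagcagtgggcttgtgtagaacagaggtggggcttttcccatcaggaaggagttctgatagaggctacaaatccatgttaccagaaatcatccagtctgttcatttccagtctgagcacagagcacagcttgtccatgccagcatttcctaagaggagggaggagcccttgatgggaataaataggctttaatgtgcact
Osmr, chr15:6874314-6874563, minus strand: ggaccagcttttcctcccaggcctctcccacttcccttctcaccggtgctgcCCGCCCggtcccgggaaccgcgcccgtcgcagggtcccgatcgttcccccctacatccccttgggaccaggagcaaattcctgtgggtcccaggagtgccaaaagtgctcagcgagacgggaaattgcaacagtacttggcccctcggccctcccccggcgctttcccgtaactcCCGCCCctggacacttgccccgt

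These 4 upstream windows differed in composition. Gfap held 2 CpG dinucleotides and Serpina3n 1, Vim 8 and Osmr 18, where the median over 32851 windows was 6. Vim carried TATAAA from 32 to 27 bases before its start, a motif held by 7.59% of all windows. Osmr carried 2 GC boxes, found in 32.74% of all windows, and Gfap and Serpina3n held none of the 5 motifs. None of the 4 held the STAT letters within these 250 bases, which says only that they are not in this window.

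The STAT, heat shock and AP-1 letters were found in 3 of the other members. Hspb1 and Cp were not called, and Steap4 was too low to be tested. The following stretches show the letters, with the STAT motif of Steap4, the pair of heat shock motifs of Hspb1 and the AP-1 motif of Cp in capitals.
Steap4, chr5:7960336-7960384, plus strand: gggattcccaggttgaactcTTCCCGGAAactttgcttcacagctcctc
Hspb1, chr5:135887782-135887849, plus strand: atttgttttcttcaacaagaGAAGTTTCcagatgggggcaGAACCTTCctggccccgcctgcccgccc
Cp, chr3:19956857-19956903, plus strand: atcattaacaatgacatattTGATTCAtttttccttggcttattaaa

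The STAT letters occur in 7.02%, the heat shock letters in 6.69% and the AP-1 letters in 6.75% of all windows. Hspb1, a small heat shock protein gene, held 2 heat shock motifs and 4 GC boxes. A match is a description of the sequence and was not tied to any measured binding here.

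Gfap encodes the intermediate filament protein that defines astrocytes. The 3 WT libraries had 118, 99.1 and 95.9 FPKM, against 589 and 449 FPKM in replicates 1 and 2 of 5xFAD, with 106 FPKM in the library labelled 5xFAD replicate 3. The first 2 5xFAD values lie far above the WT range and the last lies inside it. Over the 5 libraries the WT mean was 104 ± 11.7 FPKM (SD, n = 3), the 5xFAD mean was 519 ± 98.9 FPKM (SD, n = 2), and this gave a difference of 2.30 on the log2(FPKM + 1) scale (SE 0.16, limma adjusted p = 0.000748). With all 6 libraries the 5xFAD mean was 381 ± 249 FPKM (SD, n = 3) and the difference was 1.54 (SE 0.55, limma adjusted p = 1.00). Gfap had the 17th largest rise of the 14527 genes tested in the 5 libraries.

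Vim encodes vimentin, the partner filament of GFAP in reactive astrocytes, which vessels, fibroblasts and microglia also make. Its level was 18.8, 13.3 and 15.1 FPKM in WT, 47.5 and 36.8 FPKM in replicates 1 and 2 of 5xFAD, with 17.4 FPKM in the library labelled 5xFAD replicate 3. Only replicates 1 and 2 of 5xFAD lay above the WT range. In the 5 libraries the rise of Vim on the log2 scale was 1.37 (SE 0.17, limma adjusted p = 0.0133), and in the 6 it differed by 0.96 (SE 0.32, limma adjusted p = 1.00). The Vim call ended without WT replicate 3 (limma adjusted p = 0.0669), without 5xFAD replicate 1 (0.164) and without 5xFAD replicate 2 (0.0672).

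The 2 filaments did not rise in proportion. The ratio of Gfap to Vim FPKM was 6.25, 7.47 and 6.36 in WT, 12.4 and 12.2 in replicates 1 and 2 of 5xFAD, with 6.06 in the library labelled 5xFAD replicate 3. Gfap alone made up 67.1% to 70.7% of the summed FPKM of the 10 members in WT and 83.0% and 81.4% in 5xFAD replicates 1 and 2. A sum over the members therefore mostly reads Gfap.

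Serpina3n encodes a secreted inhibitor of serine proteases, an acute-phase protein and relative of human alpha-1-antichymotrypsin. It was at 18.6, 15.0 and 21.6 FPKM in WT, 53.2 and 46.3 FPKM in replicates 1 and 2 of 5xFAD, with 15.3 FPKM in the library labelled 5xFAD replicate 3. It rose by 1.40 in the 5 libraries (SE 0.16, limma adjusted p = 0.00887) and differed by 0.86 in the 6 (SE 0.41, limma adjusted p = 1.00). The gene lies in a cluster of similar Serpina3 genes that could share its reads. The other 10 Serpina3 genes in the table reached at most 0.741 FPKM in any library, the highest being Serpina3g. The call ended without 5xFAD replicate 1 (limma adjusted p = 0.142) and without 5xFAD replicate 2 (0.0826), each of which leaves 1 5xFAD library.

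Osmr encodes the receptor chain that pairs with gp130 to bind oncostatin M. It was at 1.66, 1.11 and 1.43 FPKM in WT, 5.29 and 4.68 FPKM in replicates 1 and 2 of 5xFAD, with 1.03 FPKM in the library labelled 5xFAD replicate 3. The first 2 5xFAD values are clear of WT and the last is the lowest of all 6. The rise was 1.32 in the 5 libraries (SE 0.16, limma adjusted p = 0.00966), and the difference was 0.80 in the 6 (SE 0.39, limma adjusted p = 1.00). The call ended without 5xFAD replicate 1 (limma adjusted p = 0.153) and without 5xFAD replicate 2 (0.0959).

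**Figure D2:**
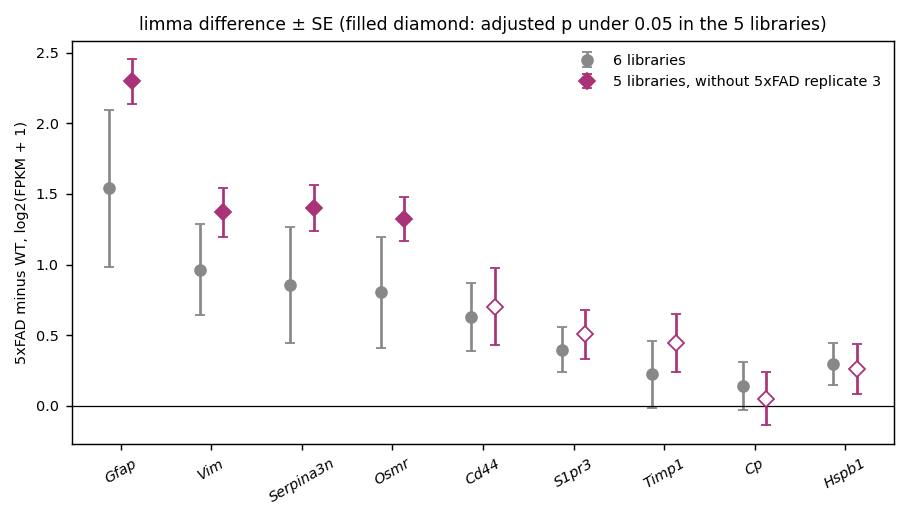
Difference between 5xFAD and WT on the log2(FPKM + 1) scale (vertical axis) for the 9 tested genes, as limma estimates with SE bars, from 6 libraries (grey circles) and from the 5 without the library labelled 5xFAD replicate 3 (diamonds, filled where the adjusted p was under 0.05). The 4 filled diamonds, at 2.30, 1.37, 1.40 and 1.32, belong to Gfap, Vim, Serpina3n and Osmr.

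Without the library labelled 5xFAD replicate 3, these 4 genes were higher in 5xFAD in either sex. Between 5xFAD replicate 1 and WT replicate 1, the male libraries, Gfap differed by 2.32, Vim by 1.29, Serpina3n by 1.47 and Osmr by 1.24 on the log2 scale. Between 5xFAD replicate 2 and the mean of WT replicates 2 and 3, all female, the differences were 2.19, 1.32, 1.32 and 1.33. The library labelled 5xFAD replicate 3 is also female, and with it averaged into the female 5xFAD side they were 1.15, 0.80, 0.55 and 0.58. No test was run within a sex, since the male libraries are 1 of each genotype.

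The receptors Cd44 and S1pr3 were higher on average but did not pass. Cd44, a surface receptor for hyaluronan, was at 1.15, 3.06 and 1.59 FPKM in WT, against 3.04, 4.23 and 2.93 FPKM in the libraries labelled 5xFAD replicates 1 to 3. WT replicate 2 reached into the 5xFAD values, so the groups overlapped. The Cd44 difference was 0.63 in the 6 libraries (SE 0.24, unadjusted p = 0.0317 and adjusted p = 1.00 by limma) and 0.70 in the 5 (SE 0.28, limma adjusted p = 0.728).

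S1pr3, a receptor for the signalling lipid sphingosine 1-phosphate, was at 1.70, 2.37 and 1.87 FPKM in WT, against 3.71, 2.77 and 2.37 FPKM in the libraries labelled 5xFAD replicates 1 to 3. Replicates 1 and 2 of 5xFAD lay above WT, while the library labelled replicate 3 matched WT replicate 2. The S1pr3 difference was 0.40 in the 6 libraries (SE 0.16) and 0.51 in the 5 (SE 0.17, limma adjusted p = 0.539). It was 0.80 between the male libraries, and among the females 0.28 without and 0.20 with the library labelled 5xFAD replicate 3.

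Timp1, a secreted inhibitor of matrix metalloproteinases, was low throughout. Its level was 0.377, 0.637 and 0.259 FPKM in WT and 1.25, 0.652 and 0.219 FPKM in the libraries labelled 5xFAD replicates 1 to 3. Only 5xFAD replicate 1 stood clear of WT, since 5xFAD replicate 2 exceeded the highest WT library by a narrow margin. The difference was 0.22 in the 6 libraries (SE 0.24) and 0.44 in the 5 (SE 0.21, limma adjusted p = 0.966). At a mean of 0.565 FPKM over the 6 libraries, Timp1 lay just above the minimum of 0.5 FPKM for testing.

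Hspb1, a small heat shock protein that stabilises filaments, was at 2.70, 2.32 and 1.66 FPKM in WT, against 2.68, 3.01 and 3.10 FPKM in the libraries labelled 5xFAD replicates 1 to 3. Its highest value was in the library with WT levels of Thy1 and Gfap. The difference was 0.29 in the 6 libraries (SE 0.15) and 0.26 in the 5 (SE 0.18, limma adjusted p = 0.998). Between the male libraries it was -0.01, and the female libraries gave 0.43 without and 0.45 with the library labelled 5xFAD replicate 3.

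Cp encodes ceruloplasmin, a copper-carrying ferroxidase made by astrocytes and by choroid plexus. It was at 5.06, 3.34 and 3.32 FPKM in WT, against 3.65, 4.40 and 5.04 FPKM in the libraries labelled 5xFAD replicates 1 to 3. The 2 highest values were in WT replicate 1 and the library labelled 5xFAD replicate 3, so the groups overlapped fully. The difference was 0.14 in the 6 libraries (SE 0.17) and 0.05 in the 5 (SE 0.19, limma adjusted p = 0.998). The male libraries differed by -0.38, and the female libraries by 0.32 without and 0.40 with the library labelled 5xFAD replicate 3.

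Steap4, a metalloreductase that reduces iron and copper, averaged 0.164 FPKM over the 6 libraries and was below the minimum for testing. It was at 0.541, 0.0620 and 0.0749 FPKM in WT, against 0.122, 0.0751 and 0.106 FPKM in the libraries labelled 5xFAD replicates 1 to 3. WT replicate 1 stood apart and the other 5 libraries overlapped. With no filter on low values its difference was -0.13 in the 6 libraries (limma adjusted p = 1.00) and -0.14 in the 5 (limma adjusted p = 0.994).

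Choroid plexus markers were highest in WT replicate 1 and the library labelled 5xFAD replicate 3, the 2 libraries with the highest Cp. Steap4 was high only in the first of these (0.541 FPKM) and was at 0.106 FPKM in the second. The summed FPKM of 7 choroid plexus markers was 2882 in WT replicate 1 and 499 in the library labelled 5xFAD replicate 3, against 45.0 to 76.3 in the other 4 libraries. Ttr, the thyroid hormone carrier of choroid plexus, was at 2758 FPKM and 467 FPKM in those 2 libraries and 32.9 to 62.6 FPKM in the rest. None of the 7 was at 0 in any library. Steap1, a relative of Steap4 chosen after its values were seen, was at 6.59 FPKM in WT replicate 1 and 0.0925 to 0.636 FPKM elsewhere. The part of choroid plexus in the values of Cp and Steap4 was not tested. For the 4 genes that rose, the difference was as large without WT replicate 1, and all 4 were still called.

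**Figure D3:**
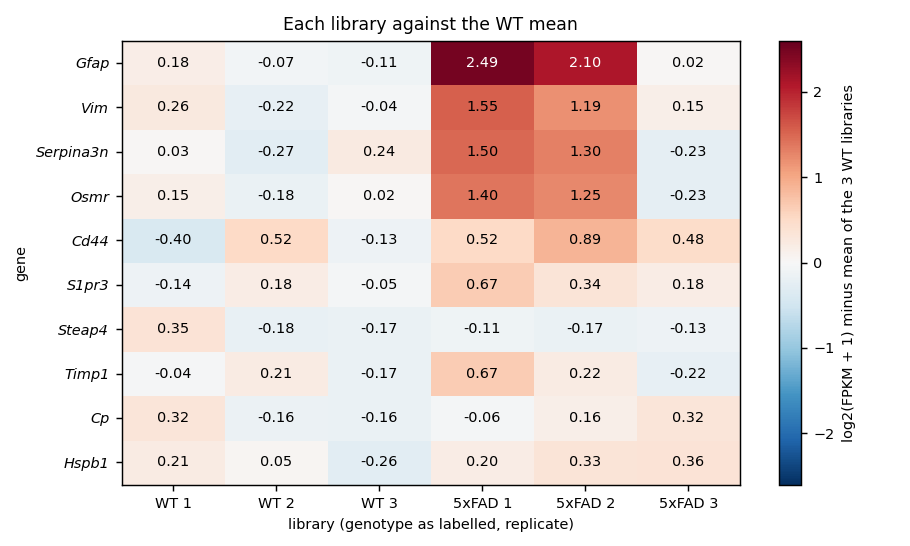
Heat map of each gene (rows) in each library (columns), as log2(FPKM + 1) minus the mean of the 3 WT libraries, red above and blue below. Gfap reaches 2.49 and 2.10 in replicates 1 and 2 of 5xFAD, with 0.02 in the library labelled 5xFAD replicate 3, while Steap4 is highest in WT replicate 1 at 0.35.

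Without the library labelled 5xFAD replicate 3, groups that did not overlap took in more members than the test called. In the 6 libraries, 0 of 10 members had every 5xFAD library above every WT library, against 2.92% of the genes tested. In the 5 libraries 6 of 10 members did, Gfap, Vim, Serpina3n, Osmr, S1pr3 and Timp1, against 10.6% of the genes tested. S1pr3 and Timp1 were not called. The median difference of the 9 tested members was 0.63 in the 6 libraries and 0.70 in the 5, and that of all genes tested was -0.01 and -0.02. All 9 tested members had a positive estimate in both, as did 45.8% and 45.7% of all genes. Steap4, left out of these medians, was the member with a negative value.

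The library labelled 5xFAD replicate 3 stayed close to WT in the genes that rose. Relative to the WT mean it was at 0.02 for Gfap, 0.15 for Vim, -0.23 for Serpina3n and -0.23 for Osmr on the log2 scale. Its values were higher for Cd44 (0.48), Hspb1 (0.36) and Cp (0.32), and for Cd44 and Cp a WT library deviated from that mean by as much.

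Astrocyte identity genes, which mark astrocytes in any state, gave smaller estimates. Of 14 such genes, 0 passed limma in either set of libraries (1 and 2 with an unadjusted p under 0.05 in the 6 and the 5), and their median difference was 0.09 in the 6 and 0.05 in the 5. The smallest p belonged to Aqp4, the water channel of astrocyte endfeet, at 33.9, 38.3 and 33.4 FPKM in WT, 51.6 and 54.8 FPKM in replicates 1 and 2 of 5xFAD, with 40.0 FPKM in the library labelled 5xFAD replicate 3. Its 5-library difference was 0.59 (SE 0.11, limma adjusted p = 0.0719). S100b, a calcium-binding protein, differed by 0.37 (SE 0.12). The summed identity genes were at 1868 to 2474 FPKM in WT and 1929 to 2542 FPKM in the libraries labelled 5xFAD. The ratio of Gfap to Aqp4 FPKM was 3.47, 2.59 and 2.87 in WT, 11.4 and 8.20 in replicates 1 and 2 of 5xFAD, with 2.64 in the library labelled 5xFAD replicate 3. The difference between the lists was not tested.

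Microglia markers moved with the 4 genes that rose. The summed FPKM of 8 such markers was 130, 155 and 143 in WT, 446 and 438 in replicates 1 and 2 of 5xFAD, with 143 in the library labelled 5xFAD replicate 3, with none at 0. In the 5 libraries 6 of 8 were called higher, among them C1qa, a complement chain, by 2.29, the growth factor receptor Csf1r by 1.32 and the integrin subunit Itgam by 1.08. The Csf1r call ended without 5xFAD replicate 1 (limma adjusted p = 0.0516), and that of Itgam without WT replicate 3 (0.0813), 5xFAD replicate 1 (0.216) or 5xFAD replicate 2 (0.0959). Their part in the rise of Vim, Serpina3n and Osmr was not tested. Vessel markers gave 0 limma calls in the 5 libraries (0 with an unadjusted p under 0.05), at 22.1 to 25.2 FPKM in WT and 19.0 to 28.5 FPKM in the libraries labelled 5xFAD for 6 endothelial genes, and 28.0 to 40.9 FPKM and 26.8 to 36.8 FPKM for 5 mural genes. The 6 fibroblast and meningeal markers summed to 32.2 to 38.0 FPKM in WT, 22.0 and 24.6 FPKM in replicates 1 and 2 of 5xFAD, with 45.2 FPKM in the library labelled 5xFAD replicate 3. Dcn, a matrix proteoglycan, was called lower among them in the 5 libraries by limma, with a log2 difference of -0.79. The Dcn call ended with no filter (limma adjusted p = 0.0599), with quantile normalization (0.0557) and without WT replicate 1 (0.0580), WT replicate 3 (0.190), 5xFAD replicate 1 (0.212) or 5xFAD replicate 2 (0.326).

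Oligodendrocyte markers were also higher in replicates 1 and 2 of 5xFAD, whose mean sum was 1.18 times that of WT, against 3.10 times for the microglia markers. The summed FPKM of 5 such markers was 1673, 1515 and 1507 in WT, 1851 and 1852 in replicates 1 and 2 of 5xFAD, with 1487 in the library labelled 5xFAD replicate 3, with none at 0. Each of the 5 was higher in replicates 1 and 2 of 5xFAD than in any WT library, as were 10.6% of the 14527 genes tested. Of the 5 markers, 0 passed limma in the 5 libraries and 3 had an unadjusted p under 0.05. Their median difference was 0.26, and their part in the values of the members was not tested. The 5 neuron markers (median difference -0.08), 4 ependymal markers (-0.13) and 5 blood markers (0.12) gave 0 limma calls in the 5 libraries, with 1, 0 and 0 at an unadjusted p under 0.05.

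**Figure D4:**
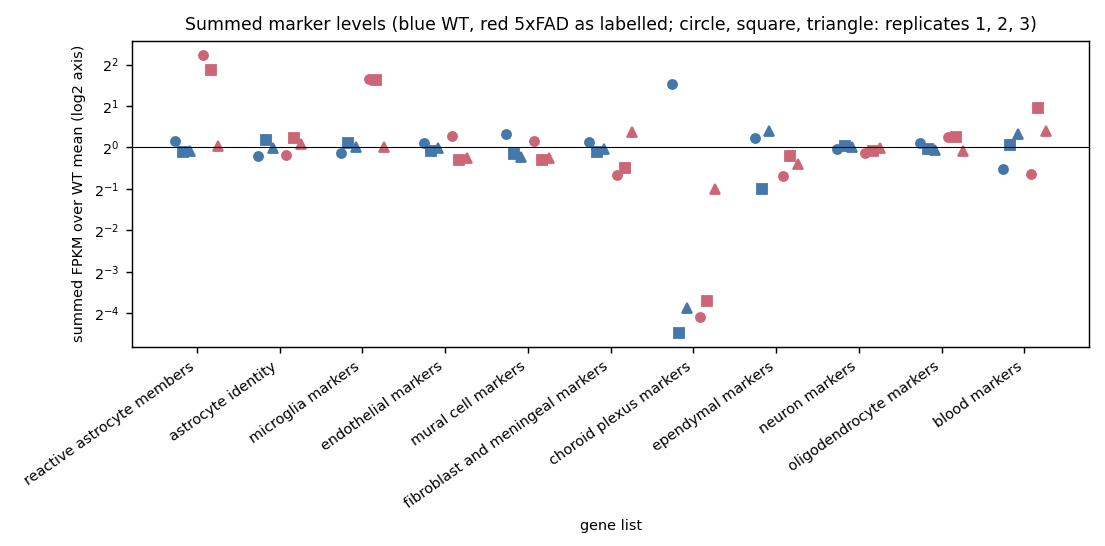
Summed FPKM of each list divided by its WT mean (vertical log2 axis), 1 point per library, blue for WT and red for the labelled 5xFAD libraries, with circles, squares and triangles for replicates 1, 2 and 3. The 10 members and the microglia markers are raised in 5xFAD replicates 1 and 2 only, while the choroid plexus markers are highest in WT replicate 1 and then in the library labelled 5xFAD replicate 3.

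The cytokine pathway around Osmr was examined next, as a list of 19 genes of gp130 and STAT3 signalling of which 13 were tested. In the 5 libraries the list median was 0.21. Stat3 was at 10.2, 11.6 and 10.8 FPKM in WT, against 15.9, 14.6 and 11.0 FPKM in the libraries labelled 5xFAD replicates 1 to 3, a 5-library difference of 0.46 (SE 0.12) that did not pass (limma adjusted p = 0.220). Socs3, the feedback inhibitor that STAT3 induces, was at 0.574, 0.326 and 0.292 FPKM in WT, against 1.28, 0.907 and 0.646 FPKM in the libraries labelled 5xFAD replicates 1 to 3, and its difference of 0.58 (SE 0.18) did not pass.

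The partners and ligand of Osmr, chosen after their values were seen, were as follows. Il6st, the gp130 chain, was at 18.0, 21.7 and 20.1 FPKM in WT, against 21.6, 25.9 and 22.2 FPKM in the libraries labelled 5xFAD replicates 1 to 3. Osmr was thus 5.13% to 9.20% of the Il6st level in WT and 24.5%, 18.1% and 4.65% in those 5xFAD libraries. Osm, the ligand oncostatin M, was too low to be tested, listed at 0 in WT replicate 1, at 0.0540 and 0.0871 FPKM in the other WT libraries, and at 0.340, 0.219 and 0.0371 FPKM in the libraries labelled 5xFAD.

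Other genes of the reactive state were taken from published groupings of reactive astrocyte transcripts. Of the 3 remaining genes of the pan-reactive group, Aspg and Cxcl10 were tested and both rose in the 5 libraries. Aspg, an asparaginase, was at 0.687, 0.397 and 0.610 FPKM in WT, 3.16 and 2.42 FPKM in replicates 1 and 2 of 5xFAD, with 0.817 FPKM in the library labelled 5xFAD replicate 3 (rise of 1.27, SE 0.17, limma adjusted p = 0.0173). The Aspg call ended without any 1 library other than WT replicate 1 (0.0571 to 0.243). Cxcl10, a chemokine induced by interferon, was at 0.333, 0.105 and 1.02 FPKM in WT, 2.89 and 3.51 FPKM in replicates 1 and 2 of 5xFAD, with 0.289 FPKM in the library labelled 5xFAD replicate 3 (rise of 1.54, SE 0.26, limma adjusted p = 0.0446). The Cxcl10 call ended with a pseudocount of 0.1 (limma adjusted p = 0.162), no filter (0.0952), quantile normalization (0.0562) or array weights (0.0958), and without any 1 library other than WT replicate 3. Lcn2, a secreted iron-siderophore binder chosen after its values were seen, was below the minimum and listed at 0, 0 and 0.120 FPKM in WT, 0.579 and 1.09 FPKM in replicates 1 and 2 of 5xFAD, with 0 in the library labelled 5xFAD replicate 3.

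The group tied to neuroinflammation had 4 of 11 genes called higher and the group tied to ischaemia 1 of 7 tested, in the 5 libraries. In the first, the class I genes H2-D1 and H2-T23 rose by 1.86 and 1.52, the proteasome subunit Psmb8 by 1.54 and the galactosyltransferase Ggta1 by 1.22. H2-D1 has close relatives that could share its reads. In the second, the called gene was Cd14, a co-receptor for bacterial lipopolysaccharide that microglia also make, with a rise of 1.78. The calls of Psmb8, Ggta1 and Cd14 ended without 5xFAD replicate 1 (limma adjusted p = 0.214, 0.111 and 0.0675) and without 5xFAD replicate 2 (0.0854, 0.105 and 0.0547), and that of H2-T23 without 5xFAD replicate 1 (0.0616). The Psmb8 call also ended with no filter (0.0596) and without WT replicate 2 (0.0624) or WT replicate 3 (0.0698). The list medians were 0.83 and 0.15, beside 0.70 for the 9 members. In the 6 libraries 0 genes of either group passed limma, with 5 and 1 at an unadjusted p under 0.05.

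**Figure D5:**
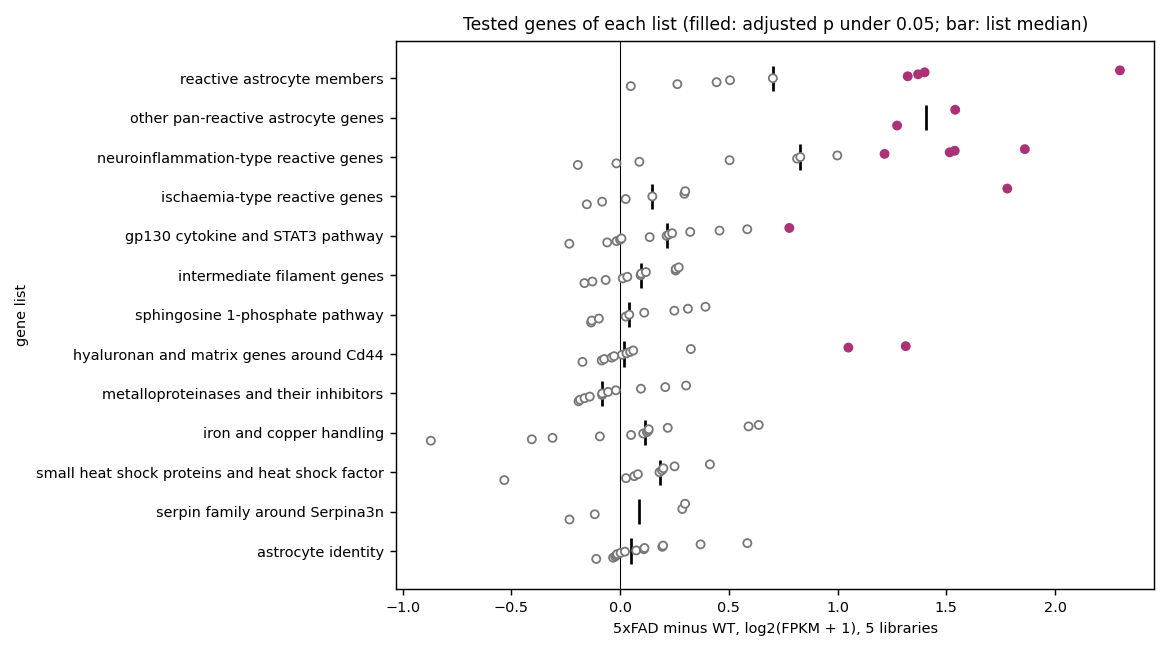
Difference between 5xFAD and WT in the 5 libraries (horizontal axis, log2(FPKM + 1) scale) for each tested gene of the lists (rows), filled where the limma adjusted p was under 0.05, with a bar at the list median. The 2 called genes of the list around Cd44 are Msn and Spp1, and the 4 called members lie at 1.32 to 2.30.

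The families of the single members gave few calls. On a list of other intermediate filament genes and the filament linker Plec, 11 genes were tested. Of these, 0 passed limma in the 5 libraries and 0 had an unadjusted p under 0.05. The smallest p-values were those of Nefm, a neurofilament chain (difference 0.26, SE 0.16), and Lmnb1, a nuclear lamin (0.27, SE 0.18). Around Cd44, 2 of 12 tested genes were called higher: Msn, moesin, which links Cd44 to actin, by 1.05 (SE 0.13), and Spp1, osteopontin, a ligand of Cd44, by 1.31 (SE 0.21). In the library labelled 5xFAD replicate 3 Spp1 was at 6.71 FPKM, above the 3.01 to 4.59 FPKM of WT. The Spp1 call ended with no filter (limma adjusted p = 0.103), with quantile normalization (0.0550) and without any 1 of the 5 libraries (0.0521 to 0.326). The Msn call ended without WT replicate 3 (0.0618), 5xFAD replicate 1 (0.15) or 5xFAD replicate 2 (0.105). Both genes are also made by microglia.

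Of 9 sphingosine 1-phosphate genes tested, 0 passed limma in the 5 libraries and 2 had an unadjusted p under 0.05. These were Sgpl1, the lyase that degrades the lipid (difference 0.39, SE 0.12), and the oligodendrocyte receptor S1pr5 (0.31, SE 0.13). Of 11 metalloproteinase and inhibitor genes, 0 passed and 0 had an unadjusted p under 0.05, with the shedding protease Adam17 at 0.30 (SE 0.13) and Adamts4 at 0.21 (SE 0.11). Timp2, the most abundant inhibitor in the list and chosen after its values were seen, was at 50.6 to 69.0 FPKM in WT and 53.6 to 73.6 FPKM in the libraries labelled 5xFAD.

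Of 12 iron and copper genes tested, 0 passed limma in the 5 libraries and 2 had an unadjusted p under 0.05, and Ftl1, the ferritin light chain, came closest. It was at 138, 159 and 160 FPKM in WT, 232 and 242 FPKM in replicates 1 and 2 of 5xFAD, with 164 FPKM in the library labelled 5xFAD replicate 3 (difference 0.64, SE 0.12, limma adjusted p = 0.0631). Hmox1, heme oxygenase, differed by 0.59 (SE 0.16). Of 9 heat shock genes tested, 0 passed and 1 had an unadjusted p under 0.05, with Hspb2 at -0.53 (SE 0.17) and Hspb6 at 0.41 (SE 0.20). Of 4 other serpins tested, 0 passed and 1 had an unadjusted p under 0.05, and Serpine2, an inhibitor of thrombin, differed by 0.29 (SE 0.10), with Serpinf1 at 0.30 (SE 0.20). Outside the members, 17 genes of these lists and marker lists were called in the 5 libraries, and 3 to 13 of them remained called when 1 more library was left out. H2-D1 and C1qa were among those that remained called in each of these fits and under the other settings run. Over all genes of the 5-library fit, 858 had an unadjusted p under 0.05, which is 5.91% of those tested.

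The genes whose pattern over the 6 libraries was most like that of each risen member were found by the distance between their vectors of log2 differences from the WT mean. Nearest to Gfap were Ctss, a lysosomal protease of microglia (distance 0.29), the complement gene C4b (0.32) and the complement chain gene C1qb (0.36). Ctss was at 42.3, 39.5 and 43.1 FPKM in WT, 218 and 197 FPKM in replicates 1 and 2 of 5xFAD, with 42.4 FPKM in the library labelled 5xFAD replicate 3. C4b has a near-identical neighbour that could share its reads. Nearest to Vim were Aspg (0.24), Arl11 (0.30) and Psmb8 (0.31), and nearest to Serpina3n were Samsn1 (0.19), the class I gene H2-K1 (0.25) and the interferon-induced Ifit3 (0.26). Nearest to Osmr were Olfml3 (0.14), a microglial gene, and Tbxas1 (0.18). All these genes share the same 6 libraries, so likeness reflects which libraries are high.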

How the data were processed

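Both deposited tables were read. The gene table holds FPKM computed by the authors, per the file name and values, while the quantifier, annotation and denominator are unstated in these sources. The build was mm9 and a tool DESeq, per the submitters' processing notes. Of the junction table deposited by the authors, which gives other values per interval, only the gene names were read. FPKM are shares of a library, and a value of exactly 0 may come from an estimate that failed.

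Differences were tested with limma 3.58.1 in R 4.3.3 with a mean trend on log2(FPKM + 1), two-sided, over genes with a mean of at least 0.5 FPKM, with Benjamini-Hochberg adjustment over all genes tested and a threshold of 0.05. Changes of low genes come out too small on this scale. The fit was tested on simulated data. Groups and replicate numbers came from the sample titles. The 10 genes, the other 21 lists, the tests and the fit without 1 library were chosen with earlier results of these data known. Every member is named. Of other lists, called genes were named, at most the 4 with the smallest p, or the 2 with the smallest p where none was called, and exceptions are stated. For 4 members the 3 genes nearest by Euclidean distance were named. A few genes that these rules select are not reported here. Alternatives covered the pseudocount, the filter, the trend, scaling, weights, a replicate block and leaving out each library. No columns were unmapped. Promoter sequences are from RefSeq, build GRCm38.p6, and no deposited value was joined to them by position.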

Additional observations from a re-analysis of the deposited data

How the results depend on the processing

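Depth in reads is unknown, so no counting error can be given for low genes such as Steap4 and Timp1. Over the 6 libraries the fits that left out 1 library called from 1 to 174 genes and from 0 to 4 members, the highest being without the library labelled 5xFAD replicate 3, and every other alternative called 1 gene and 0 members. Over the 5 libraries, leaving out 1 more library gave 35 to 174 genes and 1 to 4 members. The 35 and 1 were without 5xFAD replicate 1, 52 genes and 1 member without 5xFAD replicate 2, 84 and 3 without WT replicate 3 and 106 and 4 without WT replicate 2. A lone 5xFAD library is assumed there to vary like WT. The member still called with 1 5xFAD library was Gfap in both cases. The other alternatives for the 5 libraries (pseudocounts 0.1 and 0.5, no filter, a minimum mean of 1 FPKM, no mean trend, quantile normalization, median scaling, array quality weights, replicate block) kept 4 members called and 136 to 257 genes. In the 5 libraries WT replicate 3 has no 5xFAD partner, so the replicate block gave the same estimates as leaving that library out. For Vim both gave 1.35, called by limma with the block (adjusted p = 0.00165) but not without WT replicate 3 (0.0669). Timp1 was below the minimum, and so not tested, with a minimum mean of 1 FPKM and without 5xFAD replicate 1, nor was Steap4 except with no filter.

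The difference of Cp in the 5 libraries turned negative with quantile normalization (-0.0035), with the replicate block (-0.033), and ran from -0.059 to 0.211 when 1 library was left out, and the cause was not tested. No other member changed direction under those alternatives in which it was tested. The labels do not say that a replicate number marks shared animals or days. Deviations from the group means correlated between same-numbered WT and 5xFAD libraries at 0.42, 0.28 and 0.04 for numbers 1, 2 and 3. Not every library correlated best with its own number, and the samples were not treated as pairs in the main fit. By Xist both libraries numbered 1 were male and the others female, so the replicate block also takes in sex. The part of sex in these correlations was not tested. With the replicate block, 1 gene was called in the 6 libraries and 201 in the 5, with 0 and 4 members.
The 17 list and marker genes called in the 5 libraries numbered 10 with no filter, 13 with quantile normalization, 14 with a pseudocount of 0.1, 16 with array weights and 17 without the trend, with median scaling or with the replicate block.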
